A study of Mus musculus with 4 samples.

Results

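The suppressors of cytokine signaling (SOCS) form a family of 8 genes in the mouse, Cish and Socs1 to Socs7. All 8 were read on the arrays of follicular helper CD4+ T (TFH) cells described here, by 24 of 45037 probe sets, and they are 8 of 18193 genes in all. A probe set was taken for a member where the platform annotation names that gene alone, and each gene was represented by its brightest probe set, the one with the highest mean over the 4 arrays. The study compared TFH cells that lack mTOR complex 2 (mTORC2) with TFH cells that have it. Rictor-null TFH cells came from mice (Rictor-/-) in which the floxed gene of the mTORC2 subunit Rictor is deleted by a Cre recombinase driven by Cd4, so that the gene is lost in all T cells that pass through a CD4-expressing stage and not in TFH cells alone. WT TFH cells came from littermates that carry the floxed Rictor alleles without Cre and that the study calls WT. Both groups were young adult mice of both sexes infected with the Armstrong strain of lymphocytic choriomeningitis virus (LCMV), and TFH cells were taken from the spleen on day 8. Each group has 2 arrays, labelled as biological replicates and each made from pooled mice. The labels and the study's legend differ on how many mice went into a pool.

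SOCS proteins are the feedback brake of cytokine receptors. A cytokine brings its receptor chains together, receptor-bound JAK kinases phosphorylate STAT transcription factors, and STATs enter the nucleus and switch on SOCS genes among others. The SOCS protein then binds phosphorylated receptor or JAK through its SH2 domain, and through its SOCS box it recruits elongins B and C and cullin 5, which mark the bound protein for degradation. SOCS1 and SOCS3 also block JAK activity directly. In CD4+ T cells the family is known for tuning the response to IL-2, IL-4, IL-6, IL-12 and interferons, the cytokines that steer a cell towards or away from the TFH fate.

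The deposited values are probe set intensities on a linear scale, with medians of 20.0 to 20.4 on the 4 arrays. Differences are given on the scale log2(intensity + 16), Rictor-/- minus WT, with the standard error (SE) and Benjamini-Hochberg adjusted p from limma, and a gene passed at an adjusted p under 0.05. The added 16 understates changes of dim genes. Levels of different genes were not set against each other, since probe sets differ in how brightly they bind. Arrays correlated at 0.998 within both groups and at 0.993 to 0.994 between the groups (Pearson's r across probe sets). Rictor was at intensities of 267 and 279 in Rictor-/- arrays and 334 and 303 in WT arrays, a log2 difference of -0.21 (adjusted p = 0.0366 from limma), and the sources used here do not say whether its probe set lies in the deleted exons, so that it cannot serve as a check of the deletion. T cell transcripts were bright, and 4 of 7 T cell markers were lower and none higher in Rictor-/- TFH cells (Cd5 -0.47, Cd3e -0.32, Cd28 -0.29 and Cd4 -0.26, with summed intensities of 18301 to 18389 in Rictor-/- and 19582 to 19833 in WT arrays). Without WT replicate 1 there were 2 lower. The brightest of them did not pass, with Cd3d at 6463 ± 76.5 in Rictor-/- and 6420 ± 13.6 in WT TFH cells, and so was Icos, which encodes a costimulatory receptor of TFH cells, at 4348 ± 183 in Rictor-/- and 4337 ± 121 in WT TFH cells (SD, n = 2 each). Of 9 TFH markers, 6 were lower in Rictor-/- TFH cells and 3 did not pass, and of all genes 7.19% were lower. In pooled cells, fewer cells of a type and less RNA per cell cannot be told apart.

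Of the 8 SOCS genes, Socs2 was higher and Socs7 was lower in Rictor-/- TFH cells, and the other 6 did not pass. Of all 18193 genes 19.7% passed, 12.5% as higher and 7.19% as lower, beside 25% of the SOCS genes. All 8 members were read by a probe set above the median of all probe sets, and of the 10695 genes with such a probe set 37.2% passed in a fit of these alone. The intensities of the groups lay apart for 3 members, Socs1, Socs2 and Socs7, against 55.5% of all genes. The median difference was 0.0039 over the 8 members and 0.0068 over all genes. The members are described below by what they bind. The study chose its own list of changed genes on these same arrays by their fold change. A place of a SOCS gene on that list would therefore not be independent evidence of its direction.

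**Figure D1:**
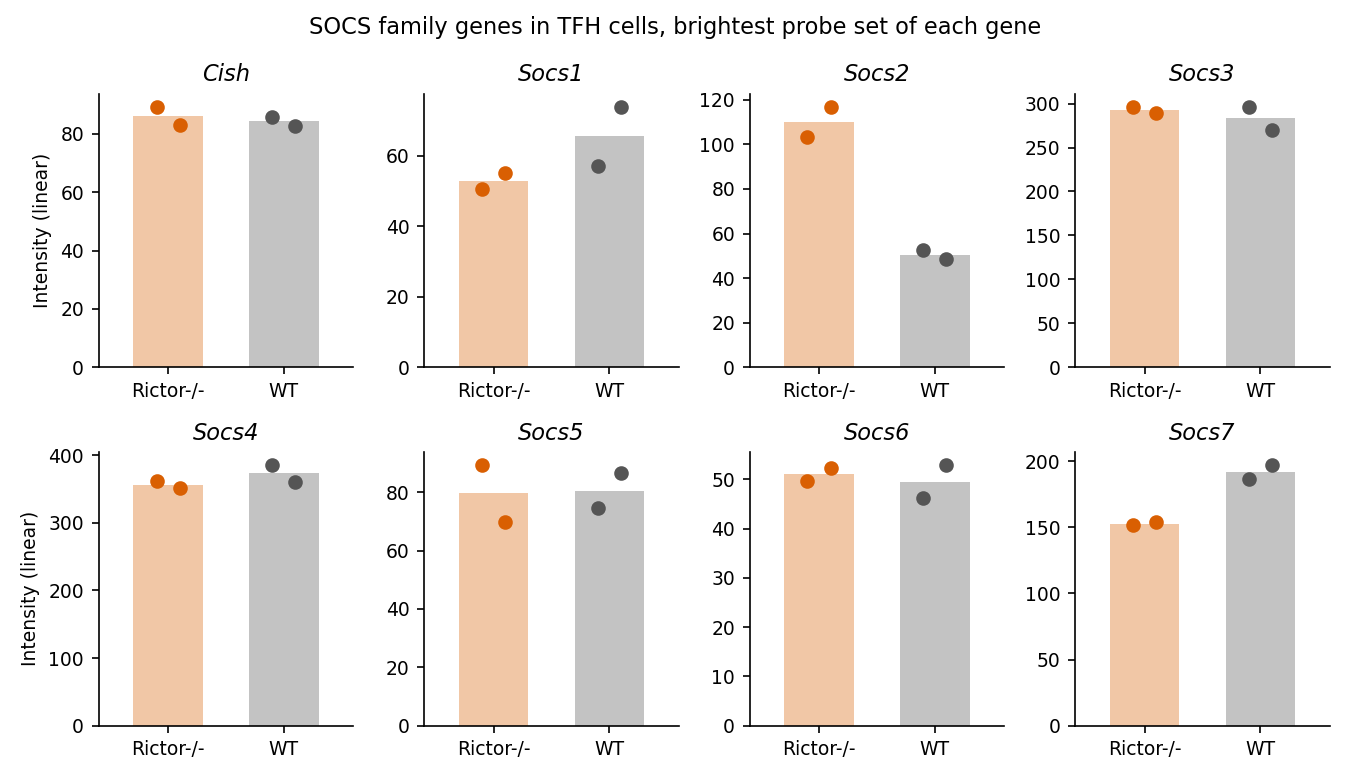
Intensity (y axes, linear, from 0) of the brightest probe set of each SOCS family gene in Rictor-/- (orange) and WT (grey) TFH cells. Points are arrays and bars are the means of the 2 arrays of a group, and the points of Socs2 (103 and 117 in Rictor-/-, 52.5 and 48.6 in WT) and Socs7 (151 and 154 in Rictor-/-, 187 and 197 in WT) lie apart.

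Cish and Socs2 are closely related, and both are known as genes that STAT5 switches on after IL-2 and related cytokines. The protein of Socs2 is best known for restraining growth hormone signaling, and that of Cish (CIS) for restraining IL-2 signaling and signals from the T cell receptor. In the Rictor-/- arrays Socs2 was at intensities of 103 and 117, against 52.5 and 48.6 in the WT arrays. Both Rictor-/- arrays lay above both WT arrays, and the spread within a group (SD 9.77 in Rictor-/- and 2.72 in WT) was small beside the gap. The mean was 110 ± 9.77 in Rictor-/- and 50.5 ± 2.72 in WT TFH cells (SD, n = 2 each), a linear ratio of 2.18 and a log2 difference of 0.92 (SE 0.09, adjusted p = 1.66e-05 from limma).

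Socs2 was read by 6 probe sets, and the pair that lay above the median of all probe sets gave like values. The second of them, whose suffix (_s_at) marks probes shared by several transcripts, was at 39.3 in both Rictor-/- arrays, against 15.4 and 16.1 in the WT arrays. That is a linear ratio of 2.50 and a log2 difference of 0.80 (SE 0.08, adjusted p = 0.000219 from limma over all probe sets, of which 11% passed, 6.38% as higher and 4.63% as lower). The equal values in both arrays are a property of the deposited table, in which 2.21% of probe sets have the same value on at least 2 arrays. The other 4 probe sets were dim, with means over the 4 arrays from 5.50 to 16.7, and had differences from -0.07 to 0.06 that did not pass. When the 6 probe sets were averaged, the difference of Socs2 was 0.30 and still passed.

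Cish did not pass. Its single probe set was at 89.4 and 83.0 in the Rictor-/- arrays, against 85.9 and 82.7 in the WT arrays, so that the groups overlapped. The log2 difference of Cish was 0.03, with a 95% confidence interval from -0.15 to 0.20 (adjusted p = 0.883 from limma), and the interval for Socs2 ran from 0.73 to 1.11. The promoter of Cish is shown because STAT5 is known to act there. The STAT motif TTCNNNGAA, which reads the same on both strands, was searched in RefSeq windows of 300 bases (250 before the start of a gene to 50 after it, build GRCm38.p6). Such a window was matched for 4 of the 8 members, Cish, Socs1, Socs3 and Socs4. Of 32851 windows 8.3% held at least 1 motif and 0.457% held 2 or more, and the window of Cish held 2. They lie side by side at chr9:107296659-107296678 on the plus strand, from the annotated start of the gene, and are shown with the motifs in capitals.
Cish: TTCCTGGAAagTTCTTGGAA

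Socs1 and Socs3 encode the members that inhibit JAKs directly. SOCS1 is the main brake on interferon-γ and common γ chain cytokines, and SOCS3 binds gp130, the shared receptor chain of IL-6. For Socs1, the intensities were 50.7 and 55.2 in Rictor-/- arrays, against 57.1 and 74.0 in WT arrays. Both Rictor-/- values lay below both WT values, but the WT arrays differed more from each other than the nearest values of the groups did. The log2 difference was -0.24 (SE 0.10, 95% confidence interval -0.46 to -0.01), with an unadjusted p of 0.0418 and an adjusted p = 0.147 from limma. Without WT replicate 2 the difference of Socs1 was -0.09, and without WT replicate 1 it was -0.38, and neither passed.

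Socs3 was read by 3 probe sets that did not give the same answer. The brightest gave 297 and 289 in Rictor-/- arrays, against 297 and 270 in WT arrays, so that the groups overlapped. Its log2 difference was 0.05 (95% confidence interval -0.09 to 0.18, adjusted p = 0.697 from limma). In the second, the Socs3 intensities were 163 and 166 in Rictor-/- arrays, against 201 and 197 in WT arrays. There the groups lay apart and Socs3 was lower in Rictor-/- TFH cells by a log2 difference of -0.25 (SE 0.07, adjusted p = 0.0372 from limma over all probe sets). The third was at 113 and 114 in Rictor-/- arrays, against 110 and 102 in WT arrays, a difference of 0.08 that did not pass. The names of the first and second end in _x_at, which marks probes that may also bind other transcripts, and that of the third does not. The promoter window of Socs3 held 1 STAT motif, shown in capitals at chr11:117969502-117969530 on the minus strand, as Socs3 is a classical target of STAT3 after IL-6.
Socs3: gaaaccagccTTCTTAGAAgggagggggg

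The windows of Socs1 and Socs4 held no TTCNNNGAA. A match of letters is a description and shows no binding.

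Socs4 and Socs5 are a pair of close relatives with long N-terminal regions, known for acting on the epidermal growth factor receptor, and SOCS5 also for binding the IL-4 receptor chain in T cells. Socs4 was at 362 and 351 in the Rictor-/- arrays, against 385 and 361 in the WT arrays, and the groups overlapped. Its log2 difference was -0.06 (95% confidence interval -0.19 to 0.06, adjusted p = 0.541 from limma). Of the other 3 probe sets of Socs4, the one at 37.7 and 38.4 in Rictor-/- arrays, against 28.6 and 25.2 in WT arrays, passed as higher, with a log2 difference of 0.34 (SE 0.08, adjusted p = 0.0303 from limma over all probe sets). The name of that probe set ends in _s_at, which marks probes shared by several transcripts. The remaining pair of Socs4 probe sets did not pass, with differences of 0.06 and -0.07. The brightest and the passing probe set therefore gave opposite signs for Socs4. For Socs5, the intensities were 89.3 and 69.9 in Rictor-/- arrays, against 74.5 and 86.5 in WT arrays. The spread of Socs5 within the groups exceeded the difference between them, which was -0.02 (95% confidence interval -0.25 to 0.21, adjusted p = 0.941 from limma), and its second probe set was at 0.05.

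Socs6 and Socs7 form the third pair of relatives, known for acting on receptor tyrosine kinases and on insulin signaling. SOCS6 binds the receptor KIT, and SOCS7 binds the adaptor NCK and insulin receptor substrates. For Socs7, the intensities were 151 and 154 in Rictor-/- arrays, against 187 and 197 in WT arrays. Both Rictor-/- arrays lay below both WT arrays, and the mean was 153 ± 1.62 in Rictor-/- and 192 ± 7.27 in WT TFH cells (SD, n = 2 each). The log2 difference of Socs7 was -0.30 (SE 0.07, adjusted p = 0.0056 from limma), a linear ratio of 0.795.

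The second probe set of Socs7 was at 125 and 133 in Rictor-/- arrays, against 148 and 168 in WT arrays. Its log2 difference was -0.26 (SE 0.08), which did not pass (adjusted p = 0.0627 from limma, adjusted over the 45037). The 2 dim probe sets of Socs7, with means over the 4 arrays of 15.3 and 6.81, were at 0.13 and 0.02. When the 4 probe sets were averaged, the difference was -0.11 (adjusted p = 0.324 from limma). The call on Socs7 also ended without WT replicate 1 (-0.34, adjusted p = 0.056 from limma) and without WT replicate 2 (-0.27, adjusted p = 0.103 from limma). Socs6 was at 49.6 and 52.4 in the Rictor-/- arrays, against 46.1 and 52.9 in the WT arrays, with overlapping groups. Its log2 difference was 0.03 (95% confidence interval -0.16 to 0.23, adjusted p = 0.864 from limma), and its other probe sets were at -0.10 and -0.07 and did not pass.

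**Figure D2:**
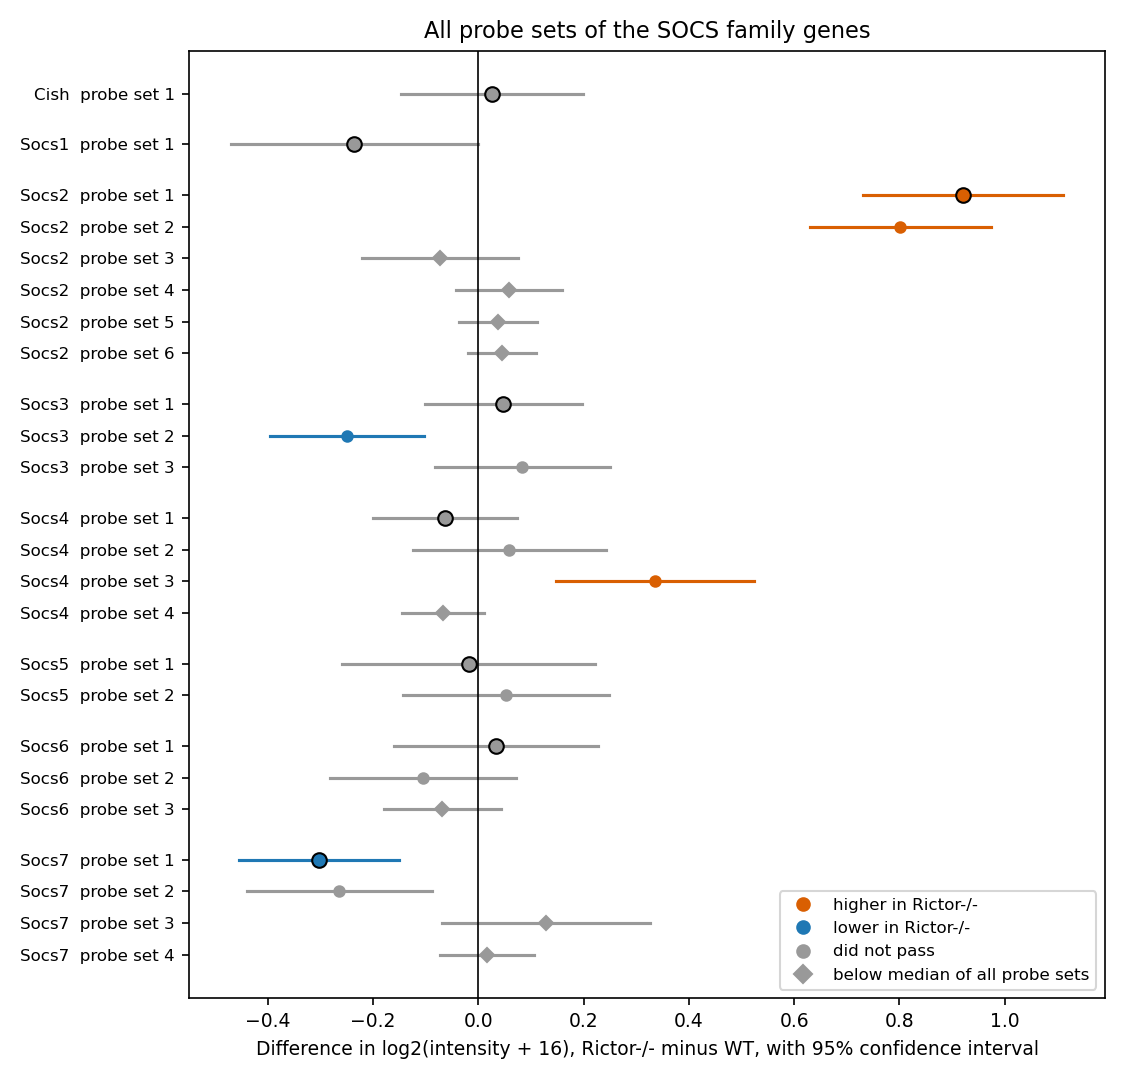
Difference in log2(intensity + 16), Rictor-/- minus WT (x axis), of all 24 probe sets of the SOCS family genes, numbered from the brightest (outlined) within each gene. Lines are 95% confidence intervals and diamonds are probe sets below the median of all probe sets. The first and second probe set of Socs2 (0.92 and 0.80) stand to the right of all others.

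Over all 24 probe sets, 3 were higher (2 of Socs2 and 1 of Socs4) and 2 were lower (1 of Socs3 and 1 of Socs7) in Rictor-/- TFH cells. Of all 45037 probe sets 11% passed, 6.38% as higher and 4.63% as lower. All that passed here were among the 16 above the median of all probe sets. None of the 8 probe sets below the median of all probe sets passed. For the 6 genes with several probe sets, the signs of the differences were mixed within each gene. With any 1 of the 4 arrays left out, the count of probe sets that passed was 2 higher and 0 lower, with 3 to 4 higher and 2 to 4 lower at an unadjusted p under 0.05 from limma. With all arrays 3 were higher and 2 lower, with 3 higher and 4 lower at an unadjusted p under 0.05.

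**Figure D3:**
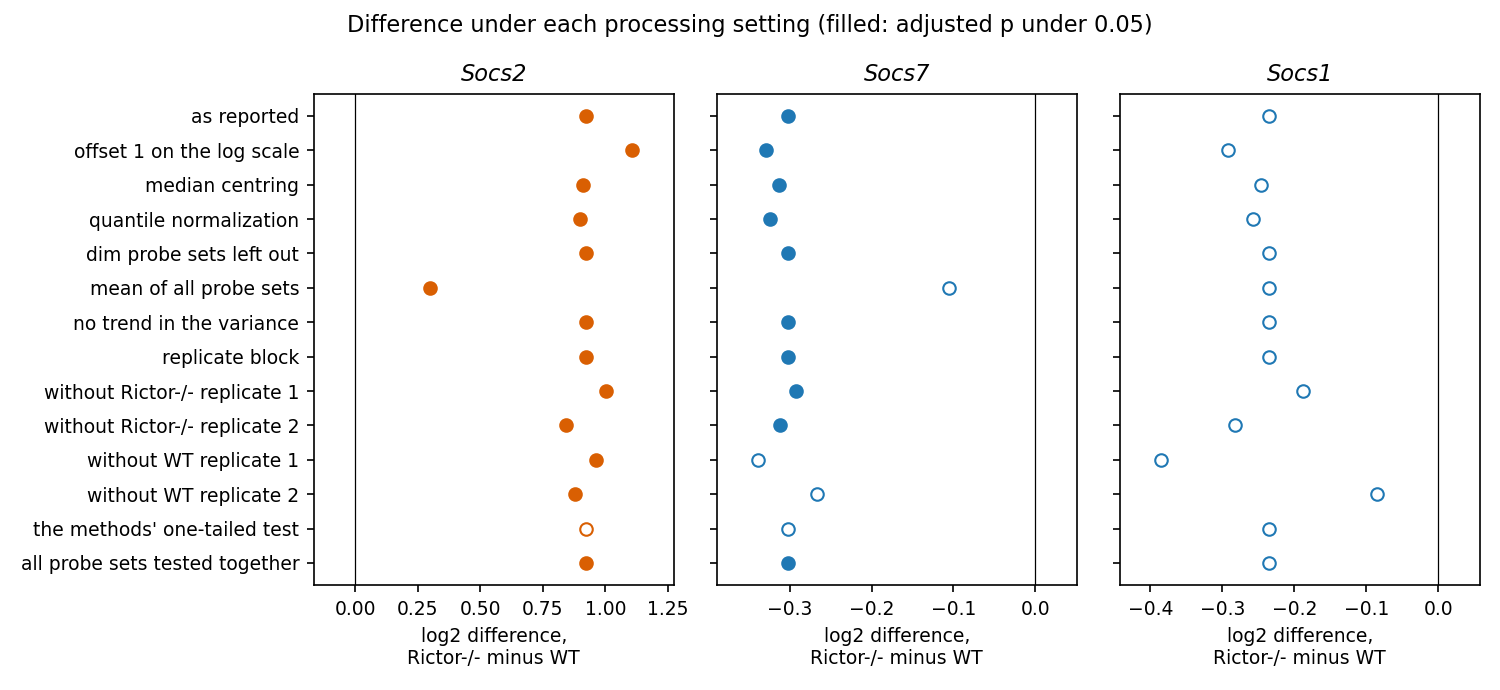
Log2 difference, Rictor-/- minus WT (x axes, each panel on its own scale), of Socs2, Socs7 and Socs1 under each processing setting (rows). Filled points passed at an adjusted p under 0.05 and open points did not. Socs2 ran from 0.30 to 1.11 and passed in 12 of 13 alternatives, Socs7 from -0.34 to -0.11 in 9 of 13, and Socs1 from -0.38 to -0.09 in none of the 13.

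The genes upstream of the SOCS feedback were read next, in lists described by their counts. Beside these counts, 19.7% of all 18193 genes passed, 12.5% as higher and 7.19% as lower. Genes with a probe set above the median of all probe sets are called above-median genes below. Of these 37.2% passed in a fit of these alone. Among 17 measured ligands that signal through JAKs, 4 were higher and 2 were lower in Rictor-/- TFH cells, and the median difference was 0.02. Of the 17, 7 were above-median genes. With dim probe sets left out, 3 of these 7 were higher and 2 lower, with a median of 0.12. Il2, the gene of the cytokine that acts through STAT5, was at 135 ± 1.81 in Rictor-/- and 68.0 ± 4.57 in WT TFH cells (SD, n = 2 each), a log2 difference of 0.84 (SE 0.08, adjusted p = 1.48e-05 from limma). Il21, the gene of the TFH cytokine that acts through STAT3, moved the other way, at 385 ± 2.19 in Rictor-/- and 730.3 ± 21.6 in WT TFH cells (SD, n = 2 each) and a difference of -0.90. Ifng, the interferon-γ gene, was at 0.30, and Csf2, which encodes GM-CSF, at 0.37. When probe sets were averaged per gene, Il21 was at -0.50, and with an offset of 1 in place of 16 Csf2 was at 0.56. Without the one or the other WT array 2 ligand genes were higher and 1 was lower.

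Of 23 receptor chains, 6 were higher and 6 lower in Rictor-/- TFH cells, and the median was -0.0011. Of the 23, 15 were above-median genes. With dim probe sets left out, 4 of these 15 were higher and 5 lower, with a median of -0.11. The chains that passed with the smallest p as higher were Il7r, the IL-7 receptor gene, at 0.53, Ifngr1, which encodes the ligand-binding chain of the interferon-γ receptor, at 0.66, and Il2ra, which encodes CD25, at 0.36. Il2ra was dim, at 19.3 ± 2.70 in Rictor-/- and 11.5 ± 0.70 in WT TFH cells (SD, n = 2 each), which is less than the middle value of 20.2 over all probe sets. Averaged over its probe sets Il2ra was at 0.20 and did not pass, and with an offset of 1 it was at 0.69. Among the chains that fell, Il6ra, the IL-6 receptor gene, was at -0.60 (SE 0.06). Without WT replicate 1 there were 4 higher and 1 lower, and without WT replicate 2 there were 3 higher and 2 lower.

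The JAK kinases were lower in 3 of 4 cases. All 4, and all 6 measured STAT genes, were above-median genes, of which 37.2% passed in a fit of these alone. Jak2 was at 672 in Rictor-/- and 798 in WT TFH cells on average, a log2 difference of -0.24, Jak3, the partner of the common γ chain, at -0.31, and Tyk2 at -0.20, with adjusted p-values from 0.00267 to 0.0233 from limma. Jak1 was at -0.07 and did not pass. Without the one or the other WT array none of the 4 JAK genes passed (0 from limma, 3 at an unadjusted p under 0.05 in both cases), and 1 did when probe sets were averaged per gene, where Jak2 was at -0.16 and Tyk2 at -0.02. Of 6 measured STAT genes, Stat4, which acts downstream of IL-12 in TH1 cells, was higher at 0.34, Stat3, which acts downstream of IL-6 and IL-21, was lower at -0.29, and Stat5b was lower at -0.17. Stat5a (-0.08), Stat6 (0.10) and Stat2 (-0.02) did not pass. Without the one or the other WT array Stat4 passed and Stat3 and Stat5b did not.

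Downstream genes other than the SOCS genes were read through a pair of lists. Of 12 genes known as STAT3 targets, 9 were lower and 1 was higher in Rictor-/- TFH cells, with a median of -0.38. All 12 were above-median genes, of which 37.2% passed in a fit of these alone. Some of the 12, Il21 among them, were already counted in the ligand and receptor lists above, so that these lists are not separate measurements. Maf was at -0.84, Fos at -0.66 and Bcl6, the lineage-defining factor gene of TFH cells, at -0.94. Several of these are also TFH genes, and Socs3, the SOCS gene known as a STAT3 target, was at 0.05 in its brightest probe set. Of 18 genes known as STAT5 targets, 8 were higher and 5 lower, with a median of 0.13. Of the 18, 17 were above-median genes, and some, Il2ra among them, were also counted in the lists above. Higher were Id2, whose protein blocks DNA binding by E proteins, at 0.57 and Gzmb, the granzyme B gene, at 0.64. Bcl6, which STAT5 is known to repress and which both lists hold, and Ltb, the lymphotoxin β gene, at -0.41, were lower. Without WT replicate 1 and without WT replicate 2 the STAT3 targets that were lower numbered 6 and 7, with 0 higher from limma (2 and 0 at an unadjusted p under 0.05). The STAT5 targets then numbered 5 and 4 higher with 2 lower each.

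**Figure D4:**
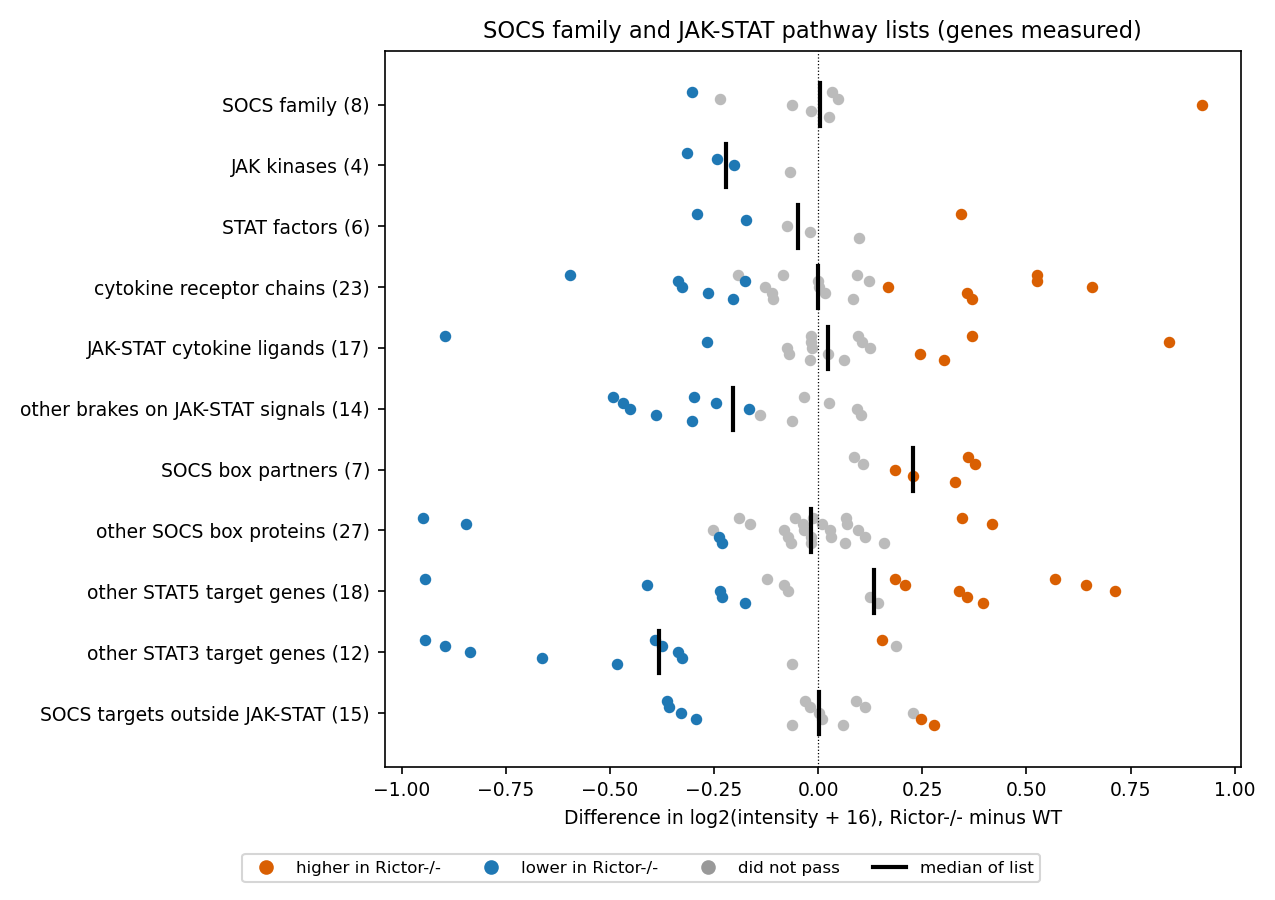
Difference in log2(intensity + 16), Rictor-/- minus WT (x axis), of each measured gene of the SOCS family and 10 other lists (rows, number of genes in brackets). Orange and blue points passed as higher and lower, grey points did not, and black bars are medians, which run from -0.38 for the STAT3 targets to 0.23 for the SOCS box partners.

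Other genes known to restrain the same signals, such as phosphatases and ubiquitin ligases, formed the next list. Of 14 measured, 8 were lower and none was higher in Rictor-/- TFH cells, with a median of -0.21. All 14 were above-median genes, of which 37.2% passed in either direction in a fit of these alone. The tyrosine phosphatase genes Ptpn11, which encodes SHP-2, and Ptpn1 were at 1314 and 889 in Rictor-/- TFH cells, against 1854 and 1235 in WT TFH cells, log2 differences of -0.49 and -0.47. The ubiquitin ligase genes Cblb and Cbl, which restrain T cell activation, were at -0.45 and -0.39. When probe sets were averaged per gene, Ptpn11 was at -0.28, Cblb at -0.25 and Cbl at -0.23, and all 3 passed. Without the one or the other WT array 4 of the 14 passed as lower.

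Genes of the machinery that SOCS proteins recruit were read as a further list. Of 7 SOCS box partners, 5 were higher and none was lower in Rictor-/- TFH cells, with a median of 0.23. All 7 were above-median genes, of which 37.2% passed in either direction in a fit of these alone. Elob and Eloc, the genes of elongins B and C, were at 0.33 and 0.38, Rnf7, the RING subunit gene of cullin 5 ligases, at 0.23, and Nedd8 and Ube2f, whose proteins activate cullins, at 0.36 and 0.18. Cul5 itself was at 0.11 and Arih2, the gene of a ligase that works with cullin 5, at 0.08, and neither passed. Without WT replicate 2 there were 2 of the 7 that passed, against 4 without WT replicate 1, and 3 when probe sets were averaged per gene, where Rnf7 was at 0.13 and Ube2f at 0.06.

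The SOCS box also occurs in proteins without the SOCS SH2 domain. Of 27 such genes, 2 were higher and 4 lower in Rictor-/- TFH cells, with a median of -0.02, and 16 of the 27 were above-median genes. Spsb1, which encodes a SPRY domain protein, was at 19.5 ± 0.52 in Rictor-/- and 52.4 ± 0.14 in WT TFH cells (SD, n = 2 each), a log2 difference of -0.95. Averaged over its probe sets Spsb1 was at -0.29 and still passed. Asb2, an ankyrin repeat member that targets filamins, was at 67.3 ± 0.28 in Rictor-/- and 134 ± 6.26 in WT TFH cells (SD, n = 2 each), a difference of -0.85. Asb1 and Asb3 were higher at 0.42 and 0.34, and Asb1 averaged over its probe sets was at 0.15 and did not pass. Without WT replicate 2, 0 were higher (from limma, 2 at an unadjusted p under 0.05) and 4 lower, and without WT replicate 1, 2 were higher and 2 lower.

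Of 15 proteins known to be bound by SOCS proteins outside the JAK-STAT route, 2 genes were higher and 4 lower, with a median of 0.0029. Of the 15, 11 were above-median genes. Nck1, which encodes an adaptor bound by SOCS7, was higher at 0.28, and Igf1r, the receptor gene of insulin-like growth factor, was lower at -0.36. The T cell receptor signaling genes Plcg1 and Zap70 were lower at -0.36 and -0.33. Of these 15 genes, 1 passed when probe sets were averaged per gene (Zap70 at -0.20, with Plcg1 at -0.12, Igf1r at -0.14 and Nck1 at 0.14), 1 without WT replicate 1, 2 without WT replicate 2 and 3 without Rictor-/- replicate 2.

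Markers of other cells that a sort can hold were read beside Socs2. Of all genes 12.5% passed as higher and 7.19% as lower. Of 11 myeloid markers, 5 were higher and none lower in Rictor-/- TFH cells, with a summed intensity of 622 to 689 in Rictor-/- and 382 to 416 in WT arrays. Itgax, the gene of CD11c, was at 144 ± 2.28 in Rictor-/- and 50.0 ± 6.16 in WT TFH cells (SD, n = 2 each), while Cd68 was at 144 ± 9.03 in Rictor-/- and 136 ± 13.2 in WT TFH cells and did not pass. Of 9 B cell and plasma cell markers, 4 were higher and none lower, with sums of 540 to 582 in Rictor-/- and 240 to 251 in WT arrays, and without WT replicate 2 there were 2 higher. Jchain, a plasma cell gene, was at 366 ± 17.9 in Rictor-/- and 120 ± 9.49 in WT TFH cells (SD, n = 2 each). Such sums mostly follow the brightest genes of a list, here Jchain, and do not measure a share of cells. Mzb1, the second brightest marker of that list, was at 96.2 ± 7.63 in Rictor-/- and 44.9 ± 2.47 in WT TFH cells (SD, n = 2 each), a log2 difference of 0.88. The B cell genes Cd79b (31.7 in Rictor-/-, 20.2 in WT) and Pax5 (16.7 in Rictor-/-, 12.2 in WT) were also higher, by 0.40 and 0.22, and the B cell genes Ms4a1 (8.20 in Rictor-/-, 9.16 in WT) and Cd79a (10.3 in Rictor-/-, 9.44 in WT) were dim and did not pass. Of 5 NK and CD8 markers, 2 were higher and none lower, with sums of 488 to 559 in Rictor-/- and 355 to 359 in WT arrays. The 2 were Eomes (353 in Rictor-/-, 230 in WT) and Cd8b1 (131 in Rictor-/-, 86.2 in WT), with log2 differences of 0.58 and 0.53. Of 7 regulatory T cell markers, 2 were higher and 1 lower, with sums of 2810 to 2841 in Rictor-/- and 2990 to 3000 in WT arrays. The brightest 2, which make up most of these sums, passed in opposite directions. Ikzf2 was at 1033 ± 26.7 in Rictor-/- and 1361 ± 18.4 in WT TFH cells, a log2 difference of -0.39. Tnfrsf18, the gene of GITR, was at 1061 ± 18.4 in Rictor-/- and 831 ± 24.9 in WT TFH cells, a difference of 0.35. Foxp3, the defining factor, was dim at 8.63 ± 1.81 in Rictor-/- and 9.34 ± 2.18 in WT TFH cells (SD, n = 2 each). No marker was at 0, but a dim value such as that of Foxp3 does not show that the transcript was present. Elsewhere the study gates activated TFH cells as CD44-high, CXCR5+ and low for GITR, a regulatory T cell marker, and nothing read here states the gate for the arrays. The part of these cells in the difference of Socs2 was not tested.

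The genes nearest to Socs2 by their centered log2 values over the 4 arrays were Ermn, which encodes a cytoskeletal protein, and Nusap1, a mitotic spindle gene, at Euclidean distances of 0.08 and 0.09. Both had differences near that of Socs2 (0.99 and 0.98). Nearest to Socs7 were Lsm14a and Erdr1, at distances of 0.00775 and 0.0133, with differences of -0.30 and -0.31. The 4 arrays fall in 2 groups, so that genes with a like difference between the groups come out as near.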

How the data were processed

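TFH cells sorted from Rictor-/- and WT mice on day 8 of LCMV infection were hybridised to 4 one-colour Affymetrix mouse arrays, 2 per group. The values deposited by the authors are linear intensities of 45037 probe sets. MAS5 and RMA appear in the notes of the authors, with neither role nor version, and the near-equal medians show that arrays had been scaled before deposit. The platform table pairs 34945 probe sets with 1 symbol, 932 with several and 9160 with none, and only the first kind named a gene. Symbols were looked up by Entrez number in RefSeq (GRCm38.p6) for 34741 probe sets, which changed 0 of them.

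Intensities became log2(intensity + 16). The brightest probe set of each of 18193 genes was compared between the groups by limma (version 3.58.1, run under R 4.3.3), using a moderated linear model whose prior variance follows the signal (Benjamini-Hochberg adjustment over all genes, threshold 0.05). Single probe sets were tested in a second fit with adjustment over all 45037. The steps were tested on simulated data drawn with limma's moderated variances. An earlier version drawn with the raw variance of each gene had missed its own criterion for recovering changed genes. Precision is limited by how few arrays there are. The p-values rest on the spread between pools, moderated towards the prior variance, and not on the spread of each gene alone. The members and lists were chosen with earlier results of these data known, and no list was tested as a set. Genes named are all members, Rictor, the JAK, STAT and SOCS box partner genes, up to 4 genes of each other list with the smallest p, up to 2 of the brightest markers of each cell type, and the 2 genes nearest to each member that passed. The T cell markers Cd5, Cd3e, Cd28 and Cd4, the B cell genes Cd79b, Pax5, Ms4a1 and Cd79a, and Foxp3 are named beside them, chosen after their values were seen. There were 13 alternatives: another offset, 2 normalizations, a filter on dim probe sets, averaging the probe sets of a gene, no trend, the replicate block, each array left out, the methods' own test and all probe sets together. After the data had been seen, the count over the pathway lists was added to what these alternatives were run on. A further list of target genes is not reported here.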

Additional observations from a re-analysis of the deposited data

How the results depend on the processing

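Socs2 was higher in Rictor-/- TFH cells in all 13 alternatives (0.30 to 1.11 on the log2 scale) and passed in 12, and Socs7 was lower in all 13 (-0.34 to -0.11) and passed in 9. The dim filter, no trend, the replicate block, the methods' test and all probe sets together leave the difference of each member unchanged. In those alternatives the direction was fixed beforehand, and only passing or not could vary. The other 6 SOCS genes passed in none, and 5 of them changed sign somewhere, all without passing. With probe sets averaged per gene Socs3 was at -0.039, Socs4 at 0.066, Socs5 at 0.017 and Socs6 at -0.046. With 1 array left out Cish ranged from -0.019 to 0.071, Socs3 from -0.017 to 0.11, Socs5 from -0.17 to 0.13 and Socs6 from -0.041 to 0.11. The methods' own test was run one-tailed on the same values, in the direction that each gene showed. The single tail makes it less strict than a two-tailed test at the same threshold. Unlike limma, it does not moderate the variance and takes the spread of each gene from its own values alone. The methods' test called 0 members higher and 0 lower after Benjamini-Hochberg adjustment (the adjusted values were 0.0814 for Socs2 and 0.0885 for Socs7), and both passed at its unadjusted threshold. It called 6 of 18193 genes after adjustment, and 0 higher and 0 lower among the 136 measured pathway genes outside the SOCS family. With probe sets averaged per gene 0 members were lower (1 at an unadjusted p under 0.05 from limma). With 1 array left out the members that passed numbered 1 higher in each case and from 0 to 1 lower, and the member probe sets 2 higher and 0 lower in each case. The pathway genes then ranged from 12 to 26 higher and from 15 to 31 lower, against 28 and 38 with all arrays, and of all genes 8.04% passed without WT replicate 1 and 7.83% without WT replicate 2, against 19.7%. With the replicate number as a block 1 member probe set was lower instead of 2, and the calls on the 8 genes did not change. The groups share replicate numbers but come from separate pools, and deviations of same-numbered arrays correlated at -0.0327 across genes, so that the numbers were not taken as pairs. Of the 24 member probe sets 8 were dim, which limits what they can show.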
